A study of Mus musculus with 12 samples.

Results

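The genes described here are 47 members of the integrated stress response and of the cytosolic aminoacyl-tRNA synthetases, chosen by name, out of 54232 gene IDs counted in mouse liver. They comprise 4 kinases of the initiation factor eIF2, 6 transcription factors around Atf4, 10 feedback and stress effectors, 8 enzymes of amino acid synthesis, 6 amino acid transporters, and 13 genes of cytosolic synthetases and tRNA export. All 47 were found, and 46 passed the filter on low counts.

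Livers came from male C57BL6/J mice of the intragastric model of alcohol-associated steatohepatitis (ASH), with an age label of 8-week. Pair-fed (PF, n = 5) controls received an isocaloric high-fat liquid diet through the stomach for 8 weeks. Alcohol-fed (AF, n = 7) mice received the same kind of diet with ethanol, at a dose raised to 27 g/kg/day over the 8 weeks, and a binge of 5 g/kg each week from the second week on, and were killed on the day after the last binge. The question was how alcohol feeding changed hepatic mRNA, measured by poly(A) RNA-seq of whole liver, in mice whose liquid diet was high in fat in both groups. According to the study's methods the mice also ate solid food, a Western diet or chow in the lead-in and the Western diet beside the liquid feeding, and whether the solid food was the same in PF and AF is not clear from them. The PF libraries held 24129900 to 28594027 counts each and the AF libraries 25099033 to 30578639. Levels below are CPM, a gene's share of the counts of its library on a common scale, after scaling with edgeR's TMM factors, and changes are log2 fold changes of AF against PF with their standard error and an adjusted p from edgeR's quasi-likelihood test over 14168 genes. Gene positions are those of GENCODE M21 on GRCm38.

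The integrated stress response begins when a kinase that senses amino acid shortage, unfolded protein in the endoplasmic reticulum, double-stranded RNA or heme lack phosphorylates eIF2. General translation then slows, while the mRNA of Atf4 is translated more, and ATF4 protein switches on genes that import and make amino acids and charge tRNA. Levels of mRNA read neither the phosphorylation nor the translation, so what follows concerns transcripts.

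In whole liver, fewer cells of a type cannot be told apart from less RNA per cell. Of the 46 tested members 20 rose in AF, or 43.5%, where 22.0% of all tested genes rose. A further 4 members fell, or 8.70%, against 17.8% of all genes, and in either direction 39.8% of all genes passed the threshold. The median log2 fold change was 0.23 over the members and 0.04 over all genes. In 13 members every AF liver lay above every PF liver, a pattern seen in 8.20% of all tested genes, whereas no member had all AF livers below all PF livers, seen in 9.49%. Also 13 members rose with a log2 fold change of at least 1, as 10.6% of all genes did. The counts of rises include Pycr1, which met the filter on low counts through the AF livers. The rises lay in the transcription factors (4 of 6), the effectors (5 of 9 tested), the synthesis enzymes (4 of 8) and the transporters (4 of 6), while 3 of 13 synthetase and export genes rose, a share of 23.1% that is close to the background, and 0 of 4 kinases did. For the kinases the count of rises in edgeR was also 0 at an unadjusted p under 0.05, and 0 in DESeq2 and limma-voom. When libraries were scaled by their totals alone, the median of all genes moved to 0.40, 28 members passed as higher and 0 as lower, so small changes below depend on the scaling.

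**Figure D1:**
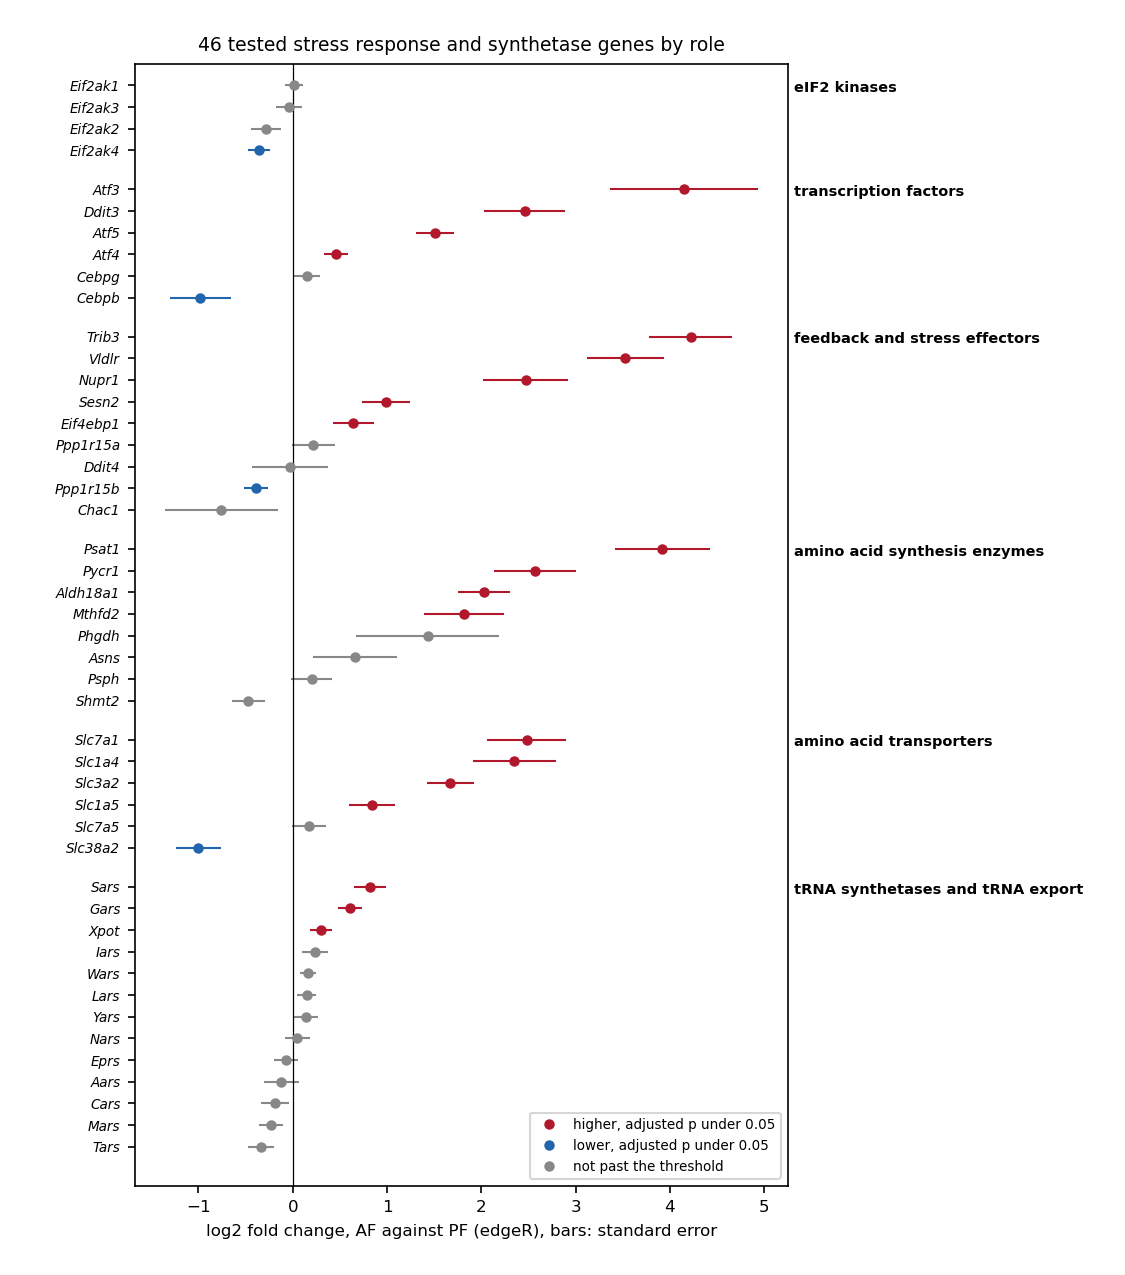
Log2 fold change of AF against PF (horizontal axis) for the 46 tested members, grouped by role, with points at the edgeR estimate and bars for its standard error, and with colours for the call. The 20 genes that rose reach from 0.30 for Xpot to 4.22 for Trib3, and the 10 synthetases that did not pass lie between -0.34 and 0.24.

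ATF4 and its partners bind a C/EBP-ATF response element, whose letters TGATGNAA (TTNCATCA on the other strand) were looked for on both strands in RefSeq promoter windows of GRCm38.p6, from 250 bases before to 50 bases after each start site. Windows (44 in all, at RefSeq start sites, which can differ from the ends of M21 genes) were found for 39 of the 47 members, and not for Ppp1r15b, Eif4ebp1, Slc7a5, Slc1a5, Cars, Lars, Nars and Wars. The letters stood in 13 of the 39 (33.3%), namely Aars, Asns, Atf3, Chac1, Gars, Iars, Nupr1, Pycr1, Slc1a4, Tars, Trib3, Vldlr and Yars, and in 4.51% of 27025 genes with a window. The narrower form TGATGCAA (TTGCATCA), contained in the first, stood in 10 members (25.6%) and in 1.03% of genes. On either strand CCAAT stood in 24 members (61.5%) and in 41.1% of genes. The letters TATAAA stood in 5 members (12.8%) and in 15.7% of genes. Of the members that rose 7 of 18 with a window held TGATGNAA, and of the others 6 of 21 did. A match is a description of the letters and does not show binding.

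The stretches that hold these letters are shown for 4 genes that rose and then for 4 that did not pass the threshold, since the same element stands in both. Each is printed 5′ to 3′ on the gene's own strand, with the match in capitals, and ends before the start site. The stretches are Atf3 (chr1:191183390-191183489, minus strand), Nupr1 (chr7:126625527-126625626, minus strand), Pycr1 (chr11:120643798-120643897, minus strand), Vldlr (chr19:27216774-27216873, plus strand), Chac1 (chr2:119351003-119351102, plus strand), Asns (chr6:7693210-7693278, minus strand), Aars (chr8:111033684-111033783, plus strand) and Tars (chr15:11399659-11399719, minus strand).
Atf3: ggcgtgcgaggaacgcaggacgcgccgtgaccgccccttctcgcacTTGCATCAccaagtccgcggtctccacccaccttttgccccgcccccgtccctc
Nupr1: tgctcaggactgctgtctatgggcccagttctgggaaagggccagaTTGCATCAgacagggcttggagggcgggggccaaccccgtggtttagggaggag
Pycr1: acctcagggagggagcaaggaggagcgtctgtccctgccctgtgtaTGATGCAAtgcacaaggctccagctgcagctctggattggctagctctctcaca
Vldlr: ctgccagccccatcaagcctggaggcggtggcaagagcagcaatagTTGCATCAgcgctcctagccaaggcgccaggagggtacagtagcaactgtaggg
Chac1: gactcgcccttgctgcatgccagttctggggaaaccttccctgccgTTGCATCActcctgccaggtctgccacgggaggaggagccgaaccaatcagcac
Asns: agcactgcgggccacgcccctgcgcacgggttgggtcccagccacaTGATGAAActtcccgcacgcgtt
Aars: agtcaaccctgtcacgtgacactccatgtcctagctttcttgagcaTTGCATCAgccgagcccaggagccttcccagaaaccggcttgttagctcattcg
Tars: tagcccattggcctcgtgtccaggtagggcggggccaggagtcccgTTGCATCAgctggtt

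Counted from the start site, the printed match began at base -110 in both Atf3 and Nupr1, at -103 in Pycr1 and at -112 in Aars, farther out in Vldlr (-200) and Chac1 (-193), and close to the start in Asns (-23) and Tars (-15). Of these 8 the reverse form TTGCATCA stood in Atf3, Nupr1, Vldlr, Chac1, Aars and Tars, the forward form TGATGCAA in Pycr1, and TGATGAAA in Asns. Aars held a further match, TTTCATCA, beginning at base 10 after the start site.

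None of the eIF2 kinases passed as higher. Eif2ak1 encodes HRI, the heme-regulated kinase, Eif2ak2 encodes PKR, which is activated by double-stranded RNA, Eif2ak3 encodes PERK of the endoplasmic reticulum, and Eif2ak4 encodes GCN2, which senses uncharged tRNA. Per kilobase of exon in PF livers Eif2ak1 was the most abundant at 11.4 ± 1.33 CPM, followed by Eif2ak2 (6.35 ± 1.45), Eif2ak3 (4.64 ± 0.958) and Eif2ak4 (1.62 ± 0.132), each as mean ± SD of 5 livers. The SD ranges of Eif2ak2 and Eif2ak3 overlap and those of the other neighbours do not.

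Eif2ak4 (ENSMUSG00000005102, chr2:118388618-118475234) had 10.7, 11.5, 13.1, 12.7 and 12.4 CPM in the PF livers, and 7.19, 10.1 and 10.9 CPM as the lowest, median and highest of the AF livers. In 6 of 7 AF livers it was below every PF liver. Its log2 fold change was -0.36 ± 0.116 (adjusted p = 0.0261), a call that was lost with upper-quartile factors (adjusted p = 0.0647) and without PF replicate 3, 4 or 5 (0.061, 0.0562 and 0.0522), and with the filter of 1 count in any library (0.0606), while on library totals the value was 0.03. Eif2ak1 had 70.8, 74.6, 60.3, 60.3 and 57.3 CPM in PF and 54.2, 66.5 and 75.3 CPM (lowest, median, highest) in AF, with a log2 fold change of 0.01 ± 0.0963 and an adjusted p of 0.917. Eif2ak2 had 24.8, 24.1, 39.3, 38.3 and 35.8 CPM in PF and 20.0, 27.7 and 32.9 CPM in AF, and its change of -0.28 ± 0.158 did not pass the test (adjusted p = 0.175). Both genes overlapped between the groups. Eif2ak3 had 27.9, 28.5, 18.6, 30.8 and 34.1 CPM in PF and 23.8, 25.9 and 32.3 CPM in AF, all 7 of which lay within the PF range, with a log2 fold change of -0.04 ± 0.134 (adjusted p = 0.825).

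The other parts of the eIF2 switch come from lists of genes outside the 47. Of 8 subunits of eIF2 and of its exchange factor eIF2B, 1 rose (Eif2b2, 0.40 ± 0.101, adjusted p = 0.00781) and 2 fell, Eif2s3x by 0.31 and Eif2b1 by 0.26 on the log2 scale (adjusted p = 0.0402 and 0.0333), though on library totals these were 0.03 and 0.09. Eif2s3x lost its call in 9 of the 12 fits that left out a library and Eif2b1 in 8, both of them without PF replicate 2, 4 or 5 or AF replicate 1, 3, 4 or 7. Eif2b2 was higher in 7 of 7 AF livers than in any PF liver. Among 7 tested regulators of the kinases 0 rose and 1 fell, Prkra, the gene of the PKR activator PACT, from 18.4 ± 1.38 to 12.1 ± 1.00 CPM (log2 fold change -0.60 ± 0.0839, adjusted p = 2.16e-04), with all 7 AF livers below all PF livers, although on library totals it did not pass (-0.24, adjusted p = 0.12) and 3 of the 7 regulators were higher. Of the 3 catalytic subunits of the phosphatase that removes phosphate from eIF2, Ppp1ca passed at 0.23 ± 0.0852 (adjusted p = 0.046), a call lost in 9 of the 12 fits that left out a library (all but those without PF replicate 1 or AF replicate 1 or 5), and with RLE size factors 0 of the 3 rose and 1 fell. Corrected for gene length and GC content, the value of Ppp1ca was 0.03 (adjusted p = 0.736).

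Of the transcription factors, 4 of 6 rose. Atf4 (ENSMUSG00000042406, chr15:80255184-80257541) encodes the central factor of the response, whose output is set mainly by translation. Its level was 95.7, 68.5, 111, 77.8 and 85.9 CPM in the PF livers, and 98.1, 122 and 150 CPM as the lowest, median and highest AF liver. The groups overlapped, with 5 of 7 AF livers above every PF liver. The log2 fold change was 0.46 ± 0.131 (adjusted p = 0.0148, exact two-sided permutation p = 0.00631), and corrected for gene length and GC content it was 0.29 and no longer passed (adjusted p = 0.112).

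Atf3 (ENSMUSG00000026628, chr1:191170296-191218039), a stress-induced factor of the same family, had 3.30, 3.71, 3.29, 2.32 and 2.94 CPM in PF and 13.7, 28.9 and 231 CPM in AF (lowest, median, highest). Every AF liver exceeded every PF liver, and AF replicate 1 stood far above the other AF livers, of which the next had 42.5 CPM. Its log2 fold change was 4.15 ± 0.784 (adjusted p = 0.00155), and 3.05 without AF replicate 1 (adjusted p = 4.50e-05). Ddit3 (ENSMUSG00000025408, chr10:127290774-127296288), which encodes CHOP, had 3.00, 2.61, 1.83, 3.85 and 2.62 CPM in PF and 6.23, 12.9 and 38.4 CPM in AF. The groups did not overlap and AF replicate 1 was again the highest. Its log2 fold change was 2.46 ± 0.427 (adjusted p = 9.38e-04). Its exons overlap those of Mars on the opposite strand over a short stretch, and whether counting used the strand is not given in the sources used here.

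Atf5 (ENSMUSG00000038539, chr7:44812256-44816658), a factor that also responds to mitochondrial stress, was abundant in both groups, with 122, 100, 95.1, 107 and 124 CPM in PF and 239, 252 and 512 CPM in AF. All AF livers exceeded all PF livers, and the highest were AF replicates 7 and 4 with 512 and 396 CPM. The log2 fold change of Atf5 was 1.51 ± 0.205 (adjusted p = 1.92e-04). As mean ± SD, Atf5 went from 110 ± 12.7 to 311 ± 104 CPM and Atf4 from 87.8 ± 16.4 to 121 ± 16.6 CPM.

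Cebpb and Cebpg encode C/EBP proteins that pair with ATF4 on the response element. Cebpb fell, with 25.5, 38.6, 12.4, 12.8 and 22.2 CPM in PF and 6.83, 10.7 and 22.1 CPM in AF. It was below the PF minimum in 6 of 7 AF livers, the exception being AF replicate 6 with 22.1 CPM. Its log2 fold change was -0.98 ± 0.325 (adjusted p = 0.0283), a call lost without PF replicate 1 or 2 (adjusted p = 0.0579 and 0.102), without AF replicate 3 or 5 (0.0539 and 0.0508) and on library totals (0.0757). Exons of Tmem189 lie opposite part of Cebpb. Cebpg stood at 83.2 ± 5.69 CPM in PF and 92.5 ± 20.1 CPM in AF, with a log2 fold change of 0.15 ± 0.135 (adjusted p = 0.383).

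Of the 9 effectors and feedback genes tested, 5 rose and 1 fell. Trib3 (ENSMUSG00000032715, chr2:152337422-152344032), a pseudokinase that binds AKT and dampens ATF4 and CHOP, had 2.56, 3.16, 1.17, 2.01 and 3.76 CPM in PF and 19.2, 42.5 and 106 CPM in AF. No AF liver lay within the PF range, and the highest was AF replicate 1. Its log2 fold change was 4.22 ± 0.443 (adjusted p = 2.92e-05, exact permutation p = 0.00126, the smallest the 792 divisions allow). That was the largest of the members in the fit as reported, close to Atf3 at 4.15 ± 0.784. On library totals Atf3 had 4.67, above the highest value of Trib3 in any alternative, 4.64.

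Vldlr (ENSMUSG00000024924, chr19:27216484-27254231), the receptor for very low density lipoprotein, had 0.640, 3.02, 3.79, 2.28 and 2.04 CPM in PF and 16.7, 26.0 and 51.9 CPM in AF. The groups did not overlap, and the highest was AF replicate 5. The change was 3.53 ± 0.41 on the log2 scale (adjusted p = 6.32e-05). Nupr1 (ENSMUSG00000030717, chr7:126623249-126630861), a small stress-induced chromatin protein, had 1.57, 1.46, 1.58, 1.85 and 2.44 CPM in PF and 4.04, 6.51 and 26.3 CPM in AF. All AF livers were higher and AF replicate 6 was the highest. This rise was 2.47 ± 0.449 on the log2 scale (adjusted p = 0.00121).

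Sesn2, which restrains mTORC1 when leucine is short, rose from 8.85 ± 2.69 to 17.5 ± 6.01 CPM (log2 fold change 0.99 ± 0.256, adjusted p = 0.00895), above every PF liver in 6 of 7 AF livers. Eif4ebp1, a repressor of cap-dependent translation, rose from 18.6 ± 5.02 to 29.1 ± 9.67 CPM (0.64 ± 0.218, adjusted p = 0.0317), but 4 of 7 AF livers lay within the PF range and the call was lost without PF replicate 3, 4 or 5 (adjusted p = 0.0827, 0.0778 and 0.0768). Its paralog Eif4ebp2, outside the 47, fell from 339 ± 29.4 to 225 ± 35.7 CPM (-0.59 ± 0.122, adjusted p = 0.00258), with all 7 AF livers below all PF livers.

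The subunits that direct the phosphatase to eIF2 did not pass as higher. Ppp1r15b encodes CReP, the constitutive subunit, and had 154, 173, 174, 150 and 121 CPM in PF and 98.9, 119 and 156 CPM in AF. It lay below the PF minimum in 5 of 7 AF livers, and its log2 fold change was -0.39 ± 0.132 (adjusted p = 0.0301). That call was lost without PF replicate 1, 2 or 3, without AF replicate 1, 3 or 4, with the filter of 1 count (0.0565), and on library totals, where the adjusted p was 0.637. Exons of Gm26616 lie opposite part of Ppp1r15b. Ppp1r15a, the gene of the inducible subunit GADD34, had a log2 fold change of 0.22 ± 0.226 (adjusted p = 0.451), with 21.1 CPM in AF replicate 1 and 8.15 to 10.6 CPM in the other AF livers.

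Chac1, which degrades glutathione and is a standard CHOP and ATF4 target, did not pass, with 5.27, 10.3, 0.542, 4.48 and 4.98 CPM in PF and 0.770, 2.22 and 7.96 CPM in AF. The PF livers alone spanned 0.542 to 10.3 CPM, and the log2 fold change was -0.76 ± 0.599 (adjusted p = 0.328). Ddit4, an inhibitor of mTORC1, also varied widely within both groups (PF 5.00 to 23.7, AF 6.78 to 22.9 CPM), with a log2 fold change of -0.03 ± 0.402 (adjusted p = 0.964). Stc2, a secreted glycoprotein, was left out by the filter on low counts, with 16 reads over the PF and 133 over the AF libraries, and had 0.154 to 1.5 CPM in the AF livers and 0 to 0.197 CPM in the PF livers. With the filter of 1 count in any library Stc2 was tested and passed as higher (1.98, adjusted p = 0.0334). It met the filter of a mean of 10 counts through the AF livers, and its call there is not used.

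**Figure D2:**
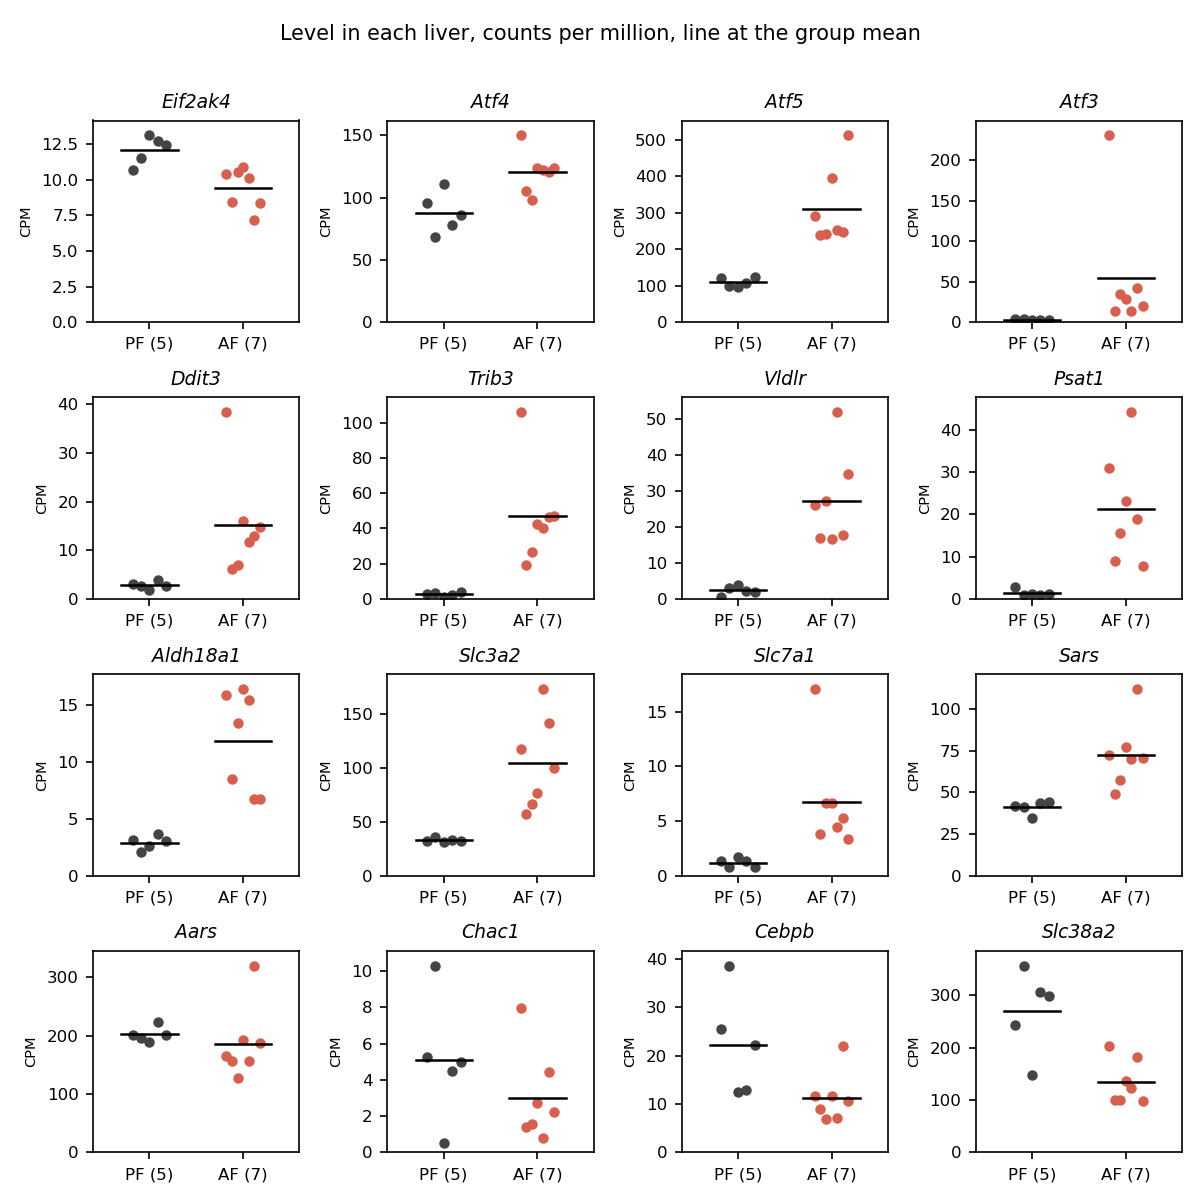
Levels in CPM (vertical axes, from 0) of 16 members in each of the 5 PF and 7 AF livers, with a point per liver in replicate order and a line at the group mean. Atf5, Atf3, Ddit3, Trib3, Vldlr, Psat1, Aldh18a1, Slc3a2, Slc7a1 and Sars do not overlap between groups, the other 6 do, and 231 CPM of Atf3 in AF replicate 1 stands apart.

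Among the 8 enzymes of amino acid synthesis 4 rose, which were Psat1, Aldh18a1, Pycr1 and Mthfd2. Psat1 (ENSMUSG00000024640, chr19:15904678-15947337), the middle enzyme of serine synthesis, had 2.90, 0.869, 1.25, 0.983 and 1.13 CPM in PF and 7.70, 18.9 and 44.2 CPM in AF. The groups did not overlap, although PF replicate 1 was the highest of the PF livers. The rise came to 3.92 ± 0.504 on the log2 scale (adjusted p = 1.26e-04). The enzymes before and after it did not pass, Phgdh at 1.43 ± 0.76 (adjusted p = 0.149) with levels from 0.0745 to 1.92 CPM, and Psph, part of which lies opposite exons of Cct6a, at 0.20 ± 0.218 (adjusted p = 0.475). Phgdh was below the PF minimum in 1 AF liver and above the PF maximum in 3 of them.

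Aldh18a1 (ENSMUSG00000025007, chr19:40550257-40588463), which makes the precursor of proline from glutamate, had 3.15, 2.10, 2.58, 3.62 and 3.03 CPM in PF and 6.74, 13.4 and 16.4 CPM in AF, with no overlap and a log2 fold change of 2.03 ± 0.276 (adjusted p = 1.87e-04). Pycr1 (ENSMUSG00000025140, chr11:120635712-120643769), which completes proline in mitochondria, had 0.443, 0.366, 0.292, 0.236 and 0.271 CPM in PF and 0.770, 2.07 and 3.54 CPM in AF. This gene too did not overlap, and per kilobase of exon its PF level was 0.0817 CPM against 0.712 CPM for Aldh18a1. The log2 fold change of Pycr1 was 2.57 ± 0.436 (adjusted p = 8.13e-04). With 36 reads over the PF libraries Pycr1 met the filter on low counts through the AF livers, so its call adds no support for a rise. In the other direction of the same route, the proline-degrading enzyme Prodh fell from 124 ± 18.4 to 51.6 ± 34.1 CPM (-1.26 ± 0.377, adjusted p = 0.0179).

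Mthfd2 (ENSMUSG00000005667, chr6:83305691-83325908), a mitochondrial enzyme of folate one-carbon metabolism, had 4.13, 2.10, 1.46, 1.77 and 2.76 CPM in PF and 2.36, 9.33 and 14.2 CPM in AF. It was above the PF maximum in 6 of 7 AF livers, AF replicate 7 with 2.36 CPM being the exception, and its log2 fold change was 1.82 ± 0.424 (adjusted p = 0.00503). Shmt2, the mitochondrial serine hydroxymethyltransferase, went the other way without passing, from 106 ± 12.1 to 76.4 ± 21.4 CPM (-0.47 ± 0.179, adjusted p = 0.0526), and it passed as lower in other fits, among them DESeq2 (adjusted p = 0.0333), limma-voom (0.0466), the fit corrected for gene length and GC content (-0.73, adjusted p = 0.006) and the fits without AF replicate 2 or 6 (0.0328 and 0.0147). Of 11 tested neighbours of these routes outside the 47, 1 rose, Mthfd1l, a further mitochondrial folate enzyme (1.92 ± 0.486 to 8.11 ± 3.52 CPM, 2.08 ± 0.342, adjusted p = 6.67e-04), and 4 fell. Besides Prodh these included the cytosolic folate enzymes Shmt1 (-0.92 ± 0.168, adjusted p = 0.00128) and Mthfd1 (-0.82 ± 0.141, adjusted p = 8.48e-04), both below every PF liver in 7 of 7 AF livers.

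Asns, asparagine synthetase and a classic ATF4 target, was spread widely in PF, with 52.4, 10.1, 9.54, 23.8 and 19.3 CPM, and reached 22.7, 26.2 and 82.4 CPM as lowest, median and highest in AF. PF replicate 1 exceeded 6 of 7 AF livers, and the log2 fold change of 0.66 ± 0.445 did not pass (adjusted p = 0.252). Without PF replicate 1 the value was 1.21 and Asns passed as higher (adjusted p = 0.0345).

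Of the amino acid transporters 4 of 6 rose and 1 fell. Slc7a1 (ENSMUSG00000041313, chr5:148327410-148399904), which carries arginine and lysine, had 1.38, 0.824, 1.67, 1.34 and 0.814 CPM in PF and 3.38, 5.32 and 17.1 CPM in AF. Its groups did not overlap, and AF replicate 1 was the highest. The log2 fold change was 2.48 ± 0.422 (adjusted p = 8.15e-04). Slc1a4 (ENSMUSG00000020142, chr11:20302180-20332713), a carrier of serine, alanine and cysteine, had 15.3, 5.31, 13.3, 11.8 and 11.9 CPM in PF and 28.6, 41.9 and 158 CPM in AF. It did not overlap either, AF replicate 5 stood apart from the rest, and the log2 fold change was 2.35 ± 0.442 (adjusted p = 0.0015).

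Slc3a2 (ENSMUSG00000010095, chr19:8706882-8723369), the heavy chain that several light chains need at the plasma membrane, had 32.1, 35.9, 31.3, 33.0 and 31.9 CPM in PF and 57.4, 99.4 and 173 CPM in AF. PF livers were nearly equal, every AF liver was higher, and the log2 fold change was 1.67 ± 0.251 (adjusted p = 3.74e-04). Its light chain for large neutral amino acids, Slc7a5, did not pass (4.14 ± 0.852 to 4.67 ± 0.975 CPM, 0.17 ± 0.179, adjusted p = 0.459), while the cystine light chain Slc7a11, outside the 47, went from 0.216 ± 0.262 to 60.8 ± 53.2 CPM. Slc7a11 had a log2 fold change of 8.13 ± 0.996 (adjusted p = 9.05e-05), which was 9.20 without PF replicate 5. With 24 reads over the PF libraries it met the filter on low counts through the AF livers, so its call adds no support for a rise.

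Slc1a5, a glutamine carrier, rose from 2.84 ± 0.719 to 5.08 ± 1.83 CPM (0.84 ± 0.247, adjusted p = 0.0162), with 4 of 7 AF livers above the PF range, and did not pass when corrected for gene length and GC content (0.54, adjusted p = 0.0689). Slc38a2, which encodes the alanine and glutamine carrier SNAT2, fell, with 242, 356, 147, 305 and 298 CPM in PF and 98.8, 123 and 203 CPM in AF. It was below the PF minimum in 5 of 7 AF livers, and its log2 fold change was -1.0 ± 0.235 (adjusted p = 0.00524), or -0.61 on library totals, where it did not pass (adjusted p = 0.0576).

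Of 10 other amino acid transporters of the liver, 3 rose and 4 fell. The rises included Slc7a6, a carrier of basic and neutral amino acids, from 0.973 ± 0.411 to 2.87 ± 1.40 CPM (1.57 ± 0.419, adjusted p = 0.0104). With 0.32 CPM in the lowest PF liver, Slc7a6 met the filter on low counts through the AF livers, so its call adds no support for a rise. The falls included the hepatocyte carriers Slc38a4, from 1615 ± 108 to 786 ± 150 CPM (-1.04 ± 0.147, adjusted p = 2.51e-04), and Slc38a3, from 1351 ± 336 to 714 ± 198 CPM (-0.92 ± 0.208, adjusted p = 0.00425). Slc43a1, a carrier of branched-chain amino acids, fell by 1.29 on the log2 scale (adjusted p = 2.14e-04).

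Among the 13 synthetase and export genes, Sars and Gars rose. Sars, which charges serine tRNA, rose from 41.0 ± 3.91 to 72.5 ± 19.8 CPM (0.82 ± 0.168, adjusted p = 0.00247) and was the synthetase without overlap between groups. Gars, which charges glycine tRNA, rose from 60.4 ± 4.98 to 92.0 ± 16.8 CPM (0.61 ± 0.129, adjusted p = 0.00305), above every PF liver in 6 of 7 AF livers. Xpot, the nuclear exporter of tRNA, passed narrowly at 0.30 ± 0.113 (adjusted p = 0.0465), with 85.0 ± 2.97 CPM in PF and 105 ± 17.5 CPM in AF, and the call was lost in 16 of 24 alternative fits, among them those without PF replicate 1, 2, 3, 4 or 5 and without AF replicate 2, 4, 5, 6 or 7.

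The other 10 synthetases did not pass. Their log2 fold changes ran from -0.34 ± 0.139 for Tars (adjusted p = 0.0675) to 0.24 ± 0.138 for Iars (adjusted p = 0.173), with Aars at -0.12, Cars at -0.19, Eprs at -0.07, Mars at -0.23, Nars at 0.05, Lars at 0.15, Wars at 0.16 and Yars at 0.14. Their mean levels in PF ran from 18.3 CPM for Wars to 202 CPM for Aars. Without AF replicate 6, Aars, Mars and Tars passed as lower (adjusted p = 0.0394, 0.0122 and 0.0356), and Tars did so without AF replicate 2 as well (0.0284). Corrected for gene length and GC content Mars passed as lower (-0.37, adjusted p = 0.0329), and in DESeq2 Tars did (-0.36, adjusted p = 0.0454). Exons of Exosc6 overlap part of Aars on the same strand, so its reads could be split between them.

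The counts for the remaining synthetases, outside the 47, moved with the scaling. Of 8 other cytosolic genes 1 rose, Vars for valine (0.49 ± 0.137, adjusted p = 0.0126), and 2 fell, Dars for aspartate (-0.38 ± 0.0981, adjusted p = 0.00813) and Farsb for phenylalanine (-0.27 ± 0.0922, adjusted p = 0.0334), though on library totals Dars was -0.03 and Farsb 0.09. Corrected for gene length and GC content, Vars (0.06), Dars (-0.21) and Farsb (-0.15) did not pass, and Farsb lost its call without PF replicate 1, 3, 4 or 5 or AF replicate 1, 3 or 7. Of the 3 scaffolds of the multi-synthetase complex 0 passed in either direction, though on library totals 2 were higher. Of 17 mitochondrial synthetases 1 rose, Pars2 for proline (0.71 ± 0.173, adjusted p = 0.00647), and 6 fell, with a list median of -0.20 that became 0.16 on library totals, where 6 rose and 1 fell. With upper-quartile factors 2 of the mitochondrial genes fell, as did 2 with the filter of 1 count in any library, and with upper-quartile factors 2 of the other cytosolic genes rose and 1 fell. Nars2, for asparagine, fell from 27.0 ± 1.17 to 15 ± 2.75 CPM (-0.86 ± 0.118, adjusted p = 2.12e-04) and was below every PF liver in 7 of 7 AF livers. Lars2, for leucine, fell by 0.56 on the log2 scale (adjusted p = 0.0403) from 3669 ± 294 CPM in PF, a call lost in 9 of the 12 fits that left out a library, those without AF replicate 2, 6 or 7 being the exceptions. Per kilobase of exon its PF level was 331 CPM, against 37.0 CPM for Nars, the highest of the cytosolic synthetases. Whether all reads counted for Lars2 come from this gene was not checked, so its level and its fall are uncertain.

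**Figure D3:**
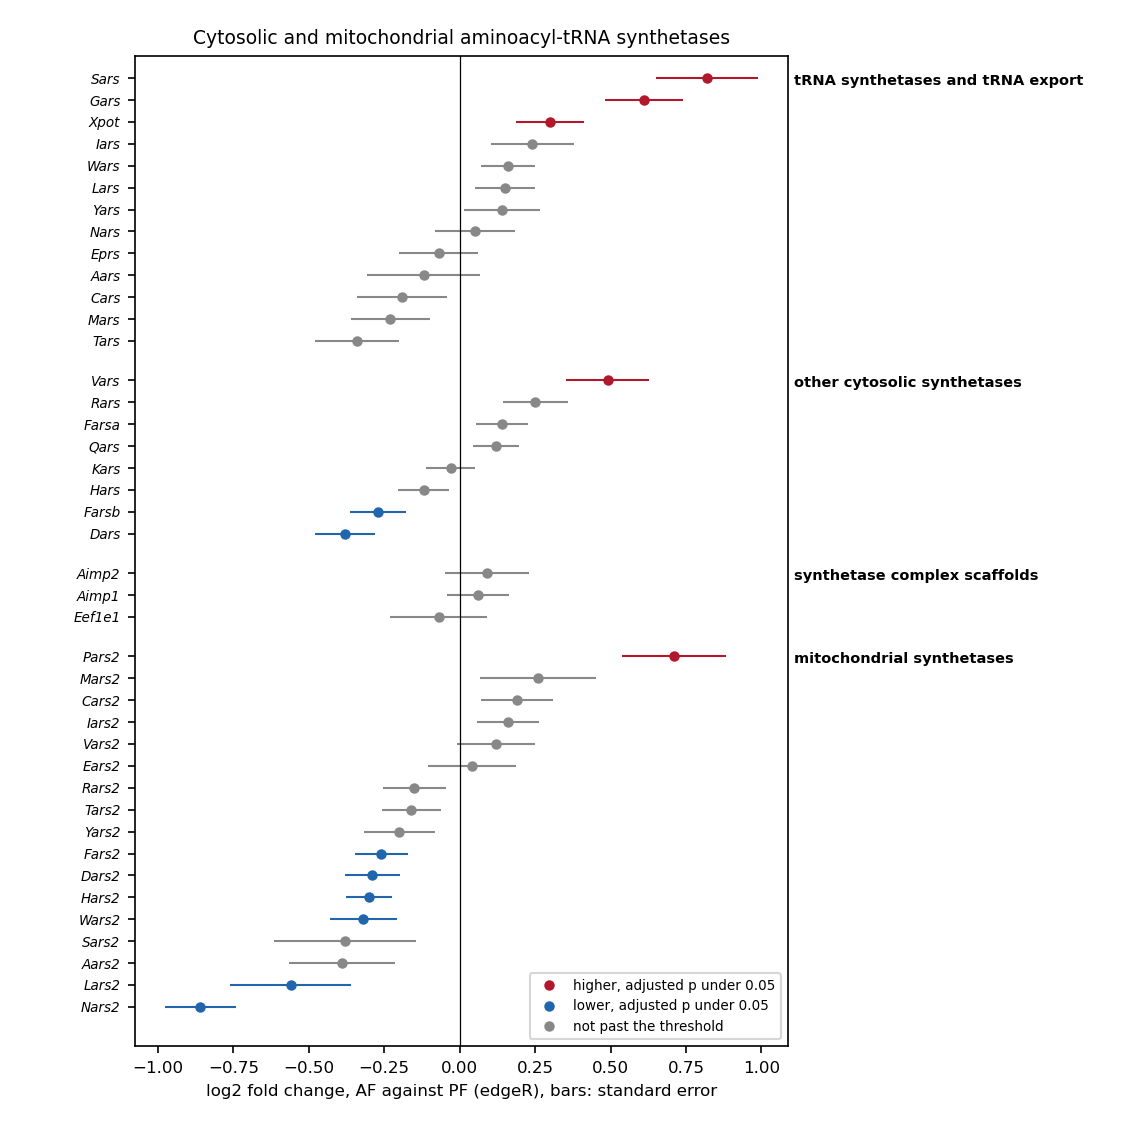
Log2 fold change of AF against PF (horizontal axis) with its standard error for the synthetase and export members, the other cytosolic synthetases, the scaffolds and the mitochondrial synthetases. Sars at 0.82 and Pars2 at 0.71 lie at the right, most cytosolic genes lie near 0, and Nars2 at -0.86 lies at the left.

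Further known targets of ATF4, outside the 47, gave 5 rises and 0 falls among 8 tested genes, with a list median of 1.06. Of all tested genes 22.0% rose and 17.8% fell. Like the other lists, this one was chosen with earlier results of these data known. Besides Slc7a11 the listed genes that rose were Fgf21, a fasting and stress hormone of the liver (0.560 ± 0.498 to 10.3 ± 9.54 CPM, 4.22 ± 0.699, adjusted p = 7.03e-04), Aldh1l2 and Slc6a9, and a gene with a smaller change. Without PF replicate 2 the value of Fgf21 was 4.90. Fgf21, Aldh1l2 and Slc7a11, counted in these rises, met the filter on low counts through the AF livers. Their calls add no support for a rise. The lowest PF liver had 0.118 CPM of Fgf21 and 0.197 CPM of Aldh1l2. Aldh1l2, a mitochondrial folate enzyme, changed by 1.61 ± 0.432 (adjusted p = 0.0106) and Slc6a9, a glycine carrier, by 1.13 ± 0.2 (adjusted p = 0.00107). Of 12 relatives of the transcription factors and effectors 0 rose and 2 fell, Eif4ebp2 and Atf2, the latter by 0.23 on the log2 scale, with 0.13 on library totals and no call without PF replicate 2, 4 or 5 or AF replicate 1, 3, 4 or 7. Of 10 targets of IRE1 and ATF6, the arms of the unfolded protein response that do not run through eIF2, 0 rose and 2 fell, Herpud1 from 470 ± 194 to 230 ± 117 CPM (-1.03 ± 0.321, adjusted p = 0.0217) and Edem1 (-0.54 ± 0.139, adjusted p = 0.00852). Herpud1 did not pass without PF replicate 2 (adjusted p = 0.0739), nor Edem1 on library totals (0.136). Each 0 in this paragraph, and those of the kinase regulators and scaffolds, was also 0 in edgeR at an unadjusted p under 0.05, in DESeq2 and in limma-voom. On library totals, however, 3 of the 12 relatives passed as higher, while 0 of the IRE1 and ATF6 targets did. Whether the IRE1 and ATF6 list differs from the ATF4 targets was not tested.

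The AF livers differed among themselves in which members were high. AF replicate 6 had the highest value of its group in 18 of the 46 members, among them 320 CPM of Aars, 82.4 CPM of Asns, 112 CPM of Sars and 236 CPM of Nars. With TMM factors, the median log2 difference of AF replicate 6 from the PF mean over the 13 synthetase and export genes was 0.46. In the other AF livers it was -0.10 to 0.20. The factor was 0.88 for AF replicate 6, 1.23 for AF replicate 4 and 1.36 for AF replicate 1. This order therefore depends on the scaling, and the medians were not computed on library totals. AF replicate 1 was the highest in 14 members, among them Atf3, Ddit3, Trib3, Ppp1r15a and Slc7a1, and its median over the synthetase genes was -0.07. Over the 20 members that rose, the median log2 difference from the PF mean was 2.32 in AF replicate 1, 1.44 in AF replicate 6 and 1.13 in AF replicate 2, the lowest. The number of members above every PF liver ran from 17 in AF replicate 2 to 30 in AF replicate 6.

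**Figure D4:**
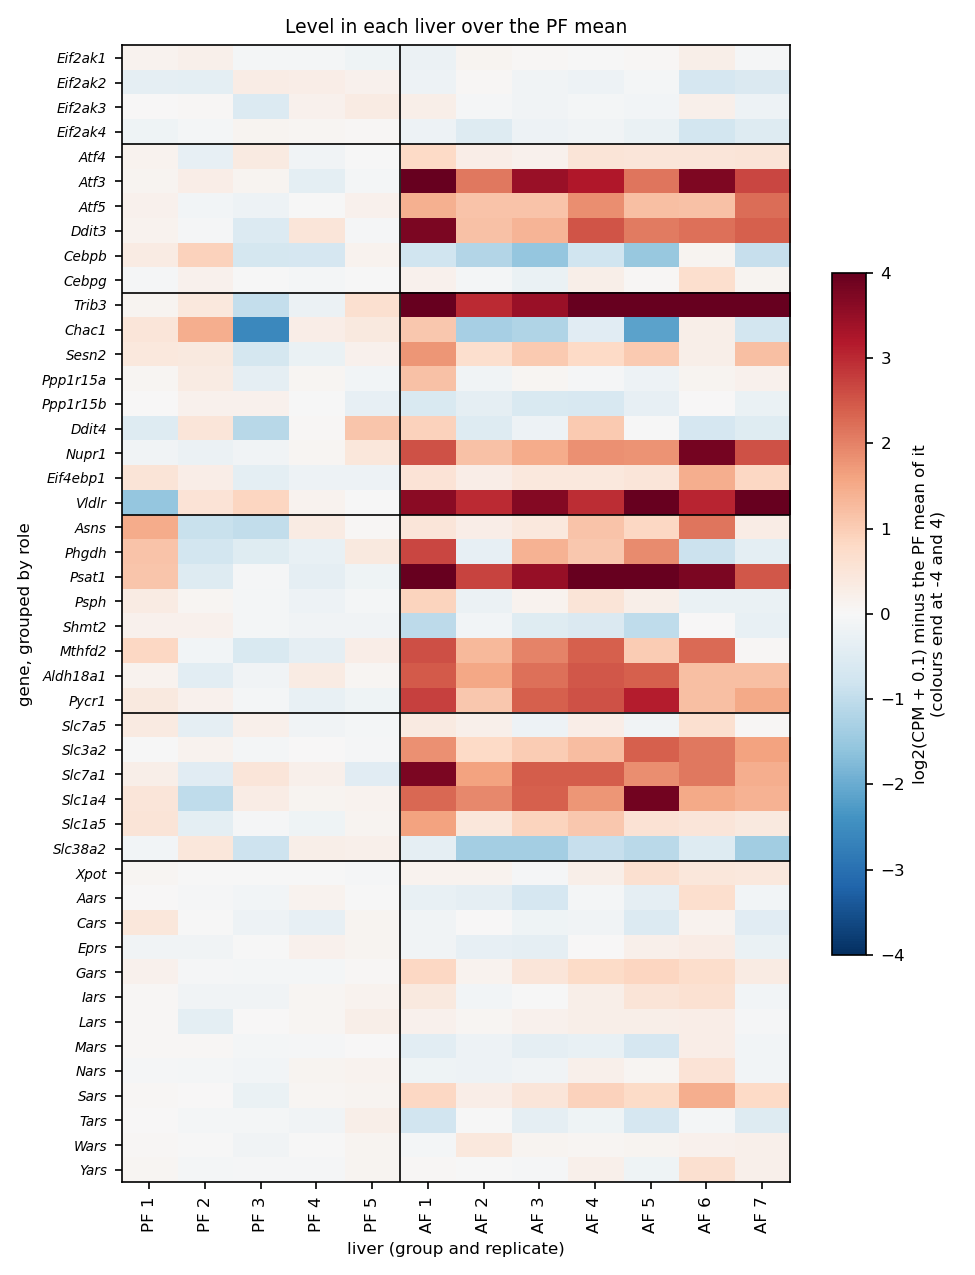
Level of the 46 tested members (rows, grouped by role) in each of the 12 livers (columns), as log2(CPM + 0.1) minus its PF mean, on a scale whose colours end at -4 and 4. Atf3, Trib3, Vldlr and Psat1 are raised in every AF liver, and most synthetase rows at the foot stay near 0 while Sars and Gars are raised in the AF livers. With TMM factors AF replicate 6 is the column with the highest synthetase median.

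The cell types of the livers differed as well. The summed level of 8 hepatocyte markers was 105788 to 150014 CPM in PF and 52373 to 108083 CPM in AF, and 3 of the 8 fell, or 5 in limma-voom and 6 in DESeq2. Of 6 markers of recruited macrophages 5 rose, from a sum of 8.24 to 34.7 CPM in PF to 31.7 to 515 CPM in AF, with AF replicate 1 the highest and AF replicate 6, at 31.7 CPM, within the PF range. Of 6 Kupffer cell markers 5 rose (616 to 886 against 891 to 2782 CPM), of 6 stellate cell markers 5 rose (38.7 to 94.4 against 81.3 to 496 CPM), and of 5 bile duct markers 4 rose (49.5 to 244 against 70.3 to 1090 CPM). Of 6 proliferation markers 4 rose (13.7 to 56.8 against 14.6 to 161 CPM), and of 5 sinusoidal endothelial markers 1 did (112 to 245 against 152 to 250 CPM). Of 6 neutrophil, 6 T cell, 4 B cell and 5 red blood cell markers tested, 0 rose and 1 T cell and 1 red blood cell marker fell, with sums of 47.2 to 769 against 29.5 to 159, 6.05 to 12.5 against 2.87 to 5.81, 2.46 to 7.15 against 1.22 to 4.00, and 130 to 182 against 30.0 to 181 CPM. Among the red blood cell markers 3 were higher at an unadjusted p under 0.05 and 0 in DESeq2 or limma-voom, while 4 were higher on library totals and 2 when corrected for gene length and GC content. For the neutrophil, T cell and B cell markers the counts of higher genes were 0 at an unadjusted p under 0.05 and in both other tools. At an unadjusted p under 0.05 2 neutrophil and 2 B cell markers were lower, while DESeq2 called 2 neutrophil and 0 B cell markers lower and limma-voom called 0 of either. In limma-voom the counts of higher bile duct and proliferation markers were 1 and 1. No marker gene of these lists was at 0 in all libraries. The part of these shifts in the changes of the members was not tested.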

How the data were processed

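The authors sequenced poly(A) RNA of mouse liver from a stranded kit and deposited counts of reads per Ensembl gene. The submitters' processing notes name FastQC 0.10.1, TopHat2 2.0.13, HTSeq 0.10.0 and build GRCm38, and the annotation and strand setting are not given in the sources used here. Columns were matched to the samples by group and replicate number.

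IDs were named with GENCODE M21 (54165 of 54232). Genes were kept with filterByExpr, and AF was compared with PF in edgeR 4.0.16 (R 4.3.3) with TMM factors, a quasi-likelihood fit and Benjamini-Hochberg adjustment over 14168 genes at a threshold of 0.05. Permutation tests were two-sided and exact over 792 divisions (smallest p 0.00126). The design named no covariates. The study's own tool, Cuffdiff2, needs alignments and was not used. The 24 alternatives included DESeq2 1.42.0, limma-voom (limma 3.58.1), other scalings and filters, and each library left out. The labels number the libraries as replicates, and p-values measure the spread between these libraries. The 31 pairs within groups all differed beyond counting noise (lowest chi-square per gene 20.5).

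Members and lists were chosen with earlier results of these data known. Every member could be named. Values per liver were given for Atf4, the kinases, members past the threshold with an absolute log2 fold change of at least 1, and members past it against their branch. From each other list at most 4 genes past the threshold were named, by size. Asns and Chac1 were also given per liver, a choice made after their values were seen. Promoter windows come from RefSeq GRCm38.p6.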

Additional observations from a re-analysis of the deposited data

Results flagged for a closer look

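In 15 of the 92 groups of livers (46 members in each of 2 groups), the highest or lowest liver stood apart from the rest by Dixon's criterion, where chance would give about 4.6. AF replicate 1 was that liver in 5 genes, as the highest, where Trib3 had 106 CPM, Atf3 231 CPM, Ppp1r15a 21.1 CPM, Ddit3 38.4 CPM and Slc7a1 17.1 CPM. The next AF livers had 47.3, 42.5, 10.6, 16 and 6.65 CPM in that order.

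AF replicate 6 stood apart as the highest in Cebpb (22.1 CPM), Nupr1 (26.3 CPM), Eif4ebp1 (49.7 CPM), Asns (82.4 CPM), Aars (320 CPM) and Yars (52.5 CPM). AF replicate 5 did so in Slc1a4, with 158 CPM. Among PF livers, replicate 1 was the highest in Psat1 (2.90 CPM) and Xpot (90.2 CPM), and replicate 3 the lowest in Sars (34.3 CPM).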

How the results depend on the processing

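Of the 24 called members 16 kept their call in all 24 alternatives, all of them higher in AF: Atf3, Atf5, Ddit3, Trib3, Sesn2, Nupr1, Vldlr, Psat1, Mthfd2, Aldh18a1, Pycr1, Slc3a2, Slc7a1, Slc1a4, Gars and Sars. The count of members higher in AF, with Stc2 not counted, was 18 to 20 when each library was left out. The count lower in AF was 4 as reported, 0 on library totals, 2 with the filter of 1 count in any library, 7 with the replicate block and the offset for GC content and length, and 2 to 8 when each library was left out, with 2 without PF replicate 1, 2 or 3 or AF replicate 3 and 8 without AF replicate 6. On library totals 1 eIF2 kinase and 8 synthetase and export genes were called higher, and Eif2ak4 (0.03), Eif2s3x (0.03), Eif2b1 (0.09), Wars2 (0.03), Farsb (0.09) and Atf2 (0.13) changed sign. Over all members and alternatives 1028 fits stayed on the same side of the threshold, 42 lost the call and 29 gained it. In 1 fit, Eif2ak4 on library totals, a called member changed sign. Members that were not called could change sign within the 1028, as Eif2ak2 did on library totals (-0.28 as reported, 0.09 there). Causes were not tested. With the replicate block 20 members were higher and 6 lower. Whether equal replicate numbers mark pair-fed livers is not given in the labels. In deviations from the group mean, same-numbered livers had correlations of 0.00429, -0.076, 0.115, 0.0785 and 0.113. These cannot decide it, since no reference was computed for them. Stc2 was tested and passed as higher with the filter of 1 count in any library. It also entered the fit with a mean of 10 counts and the 5 fits without a PF library. There it met the filter through AF livers, and those calls are not used. Depth limited Stc2 and the PF values of Phgdh, Pycr1 and Slc7a11, which rest on 28, 36 and 24 reads over the 5 libraries. Pycr1, Slc7a11, Fgf21, Aldh1l2 and Slc7a6 met the filter on low counts through AF livers, and their calls are included in the counts above. Phgdh met the filter through AF livers as well, and was called higher only in the 2 fits with the replicate block.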
